A study of Homo sapiens with 21 samples.

Results

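The genes described here are 48 genes of the lysosome: soluble hydrolases, their activators, proteins of the lysosomal membrane, subunits of the proton pump, and the transcription factors of the TFEB family. They were taken by symbol from a list that covers these roles, and all 48 had a probe set among the 18374 genes that the array's annotation names by a single symbol. Where a gene had several probe sets, the one with the highest mean over all arrays was used. Expression was measured with Affymetrix whole-transcript arrays in clones of the human glioblastoma cell line U-87MG that stably carry parkin, a ubiquitin ligase that acts in the removal of damaged mitochondria, or the vector alone. The design asked which transcripts differ with parkin. The vector clones were V8, V17 and V22 and the parkin clones PK7, PK19 and PK25, all of the same parental line, seeded alike and grown for the same time. Each name stands for 1 clone, so a difference between a parkin clone and a vector clone holds whatever sets those 2 clones apart. Each clone had 3 arrays, and V22 had 3 more: V8, V17 and V22 were measured in a first array series, and PK7, PK19, PK25 and V22 again in a second. Values are log2 RMA intensities, a difference of 1 is a doubling, and a clone was compared with V22 of its own series. The level of the introduced gene's transcript was not analysed here.

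Lysosomes break down proteins, glycans, lipids and nucleic acids that reach them by endocytosis and by autophagy, the route by which mitochondria marked by parkin are also degraded. Their hydrolases work in an acidic lumen that the vacuolar proton pump maintains, and heavily glycosylated membrane proteins line the inner face of the membrane. TFEB, TFE3 and MITF are related transcription factors that bind a short palindromic element, CACGTG within a longer consensus, in the promoters of many lysosomal genes, and mTORC1 at the lysosomal surface keeps TFEB and TFE3 out of the nucleus in fed cells.

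The promoters of the members show how common this element is among them, and 3 are given in full because they hold its 10-letter form. RefSeq promoter windows (build GRCh38.p14, 300 bases, 250 before to 50 after the gene's start) were at hand for 34 of the 48 members. CACGTG, which reads the same on both strands, was found in the windows of 11 of these 34 members (32.4%), against 8.78% of all 27305 genes with a window. The longer TCACGTGA, which contains it, was in 7 members (20.6%, against 1.18% of all genes), and the 10-letter form, TCACGTGA with a G before it and a C after it, in 3 members (8.82%, against 0.421%). These 3 were GAA, acid alpha-glucosidase, GALNS, a sulfatase of keratan and chondroitin sulfate, and MCOLN1, a calcium channel of the lysosomal membrane. The 10-letter form began 78 and 33 bases before the start of GAA, which held it in 2 copies, 176 before that of GALNS and 16 before that of MCOLN1. The 250 bases before each start are written 5′ to 3′ on the gene's strand, with every CACGTG in capitals.
GAA, chr17:80101331-80101580, plus strand: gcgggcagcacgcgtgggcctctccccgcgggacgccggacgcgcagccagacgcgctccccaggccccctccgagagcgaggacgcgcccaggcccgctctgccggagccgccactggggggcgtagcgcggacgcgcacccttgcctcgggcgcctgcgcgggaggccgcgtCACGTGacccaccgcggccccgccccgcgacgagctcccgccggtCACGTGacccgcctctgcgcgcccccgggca
GALNS, chr16:88856948-88857197, minus strand: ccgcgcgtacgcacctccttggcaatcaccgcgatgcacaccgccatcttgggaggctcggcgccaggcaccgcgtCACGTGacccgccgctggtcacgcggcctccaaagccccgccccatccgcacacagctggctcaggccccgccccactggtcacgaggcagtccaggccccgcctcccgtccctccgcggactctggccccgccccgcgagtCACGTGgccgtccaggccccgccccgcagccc
MCOLN1, chr19:7522374-7522623, plus strand: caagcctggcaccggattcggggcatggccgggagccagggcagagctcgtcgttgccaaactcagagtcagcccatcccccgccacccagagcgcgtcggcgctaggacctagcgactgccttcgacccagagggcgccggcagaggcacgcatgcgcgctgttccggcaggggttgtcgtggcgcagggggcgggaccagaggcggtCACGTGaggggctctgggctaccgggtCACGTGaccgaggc

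The other 8 members with CACGTG are shown as stretches of 30 bases around 1 copy, again with the element in capitals, because the letters beside it differ. The window of LAMP1, the most abundant glycoprotein of the lysosomal membrane, held 6 copies. ATP6V0D1, CLN3, CTSA and LAMP1 carried the 8-letter form, and ARSB, CD63, CTSF and NEU1 the 6 letters alone.
ATP6V0D1, chr16:67481199-67481228, minus strand: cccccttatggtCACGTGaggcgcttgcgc
CLN3, chr16:28492058-28492087, minus strand: cgcgggtgctgtCACGTGatccgacaaacg
CTSA, chr20:45891298-45891327, plus strand: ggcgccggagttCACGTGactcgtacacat
LAMP1, chr13:113297199-113297228, plus strand: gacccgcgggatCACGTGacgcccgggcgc
ARSB, chr5:78986101-78986130, minus strand: taattcaataagCACGTGactaaaggattt
CD63, chr12:55729172-55729201, minus strand: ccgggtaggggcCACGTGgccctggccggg
CTSF, chr11:66568712-66568741, minus strand: acatataacaagCACGTGatagaggtcagt
NEU1, chr6:31862930-31862959, minus strand: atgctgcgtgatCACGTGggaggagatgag

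A match of letters is a description of the window and does not show a bound site, and a window without them says nothing of the factor. Against V22, the 11 members with CACGTG had a median log2 difference of 0.31 in PK7 and 0.16 in PK19, and the 23 members whose window lacked it had medians of 0.23 and 0.23. In PK7, 4 of the 11 passed the test as higher and 2 as lower, and of the 23, 9 were higher and 2 lower, where 7.11% of all probe sets were higher and 8.11% lower. In PK19, limma called 0 of the 11 higher (2 at an unadjusted p under 0.05) and 1 lower, and of the 23, 8 were higher and 1 lower (6.65% and 7.4% of all probe sets). The 14 members without a window had medians of 0.39 in PK7 and 0.09 in PK19. Of these 14, 9 were called higher and 0 lower in PK7, and 3 and 2 in PK19. The difference between these classes was not tested. For the carriers of the 10-letter form, the difference between PK7 and V22 was 0.50 for GALNS and -0.38 for MCOLN1, both past the threshold, and 0.47 for GAA, which missed it and stood at 0.26 without set 2 of PK7.

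Most members were strongly expressed. The mean log2 intensity over the 21 arrays ran from 4.51 for CTSH to 12.41 for CD63, 45 of the 48 lay above the median probe set, and 20 lay among the brightest 10%. CTSH and GALC lay among the dimmest 30% of probe sets, so a low level of these cannot be told from no expression. Array medians lay between 6.21 and 6.37. The mean over the 48 members was 9.29, 9.45 and 9.30 on the PK7 arrays of sets 1, 2 and 3, and 8.99, 8.89 and 9.01 on the V22 arrays of the same series (sets 4, 5 and 6). Set 2 of PK7 therefore stood highest and set 5 of V22 lowest, and for calls lost without either array the value without it is given. In V8 this mean was 9.27, 9.01 and 9.20 in sets 1, 2 and 3, and the median SD of the members over arrays was highest in V8 (0.20). In bulk RNA, fewer expressing cells and less RNA per cell cannot be told apart. Nothing in the labels says that the 3 arrays of a clone came from separate cultures, so the p-values over arrays measure the spread between arrays, which may be technical.

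More members were higher than lower in PK7 and PK19 against V22, 1 member was higher in PK25, and the vector clone V8 departed from V22 as well. A member is called here when limma's moderated test gave an adjusted p under 0.05 (Benjamini-Hochberg, with all 26947 probe sets tested). In PK7, 22 of the 48 members were called higher and 4 lower, where 7.11% of all probe sets were called higher and 8.11% lower. In PK19 the counts were 11 higher and 4 lower (6.65% and 7.4% of all probe sets), and in PK25 CTSL alone was called, as higher (0.427% higher, 0.939% lower). V8 had 7 members higher and 2 lower than V22 (3.78% and 4.22%). V17 had none in limma's test, in which no probe set was called (0%), and no member reached an unadjusted p under 0.05, against 2.71% of all probe sets. Because bright probe sets are called more often, the members' counts are better read against probe sets above the median level, of which 10.4% were higher and 14.8% lower in PK7, 9.2% and 13.1% in PK19, and 5.8% and 7.23% in V8. In PK25 these shares were 0.646% and 1.66%. The shares over all 48 members were 45.8% higher and 8.33% lower in PK7, 22.9% and 8.33% in PK19, and 14.6% and 4.17% in V8. Over the 45 members above the median level they were 46.7% and 8.89% in PK7, 24.4% and 8.89% in PK19, and 13.3% and 4.44% in V8.

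**Figure D1:**
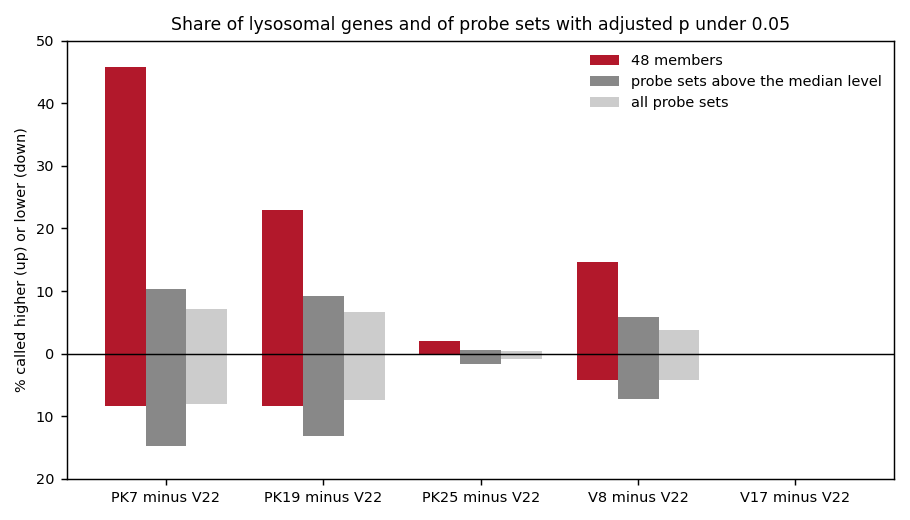
Percentage of the 48 lysosomal genes (red), of probe sets above the median level (dark grey) and of all probe sets (light grey) that limma called higher (bars up) or lower (bars down) than V22 of the same array series, for each clone on the x axis. The red bar of PK7 reaches 45.8% upward and that of PK19 22.9%, while downward the members stay at 8.33% in both.

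The median log2 difference from V22 over the 48 members was 0.32 in PK7, 0.14 in PK19, -0.03 in PK25, 0.04 in V8 and 0.01 in V17. Over all genes these medians lay between -0.01 and 0.02. In PK7, 40 members lay above V22, in PK19 33, in PK25 22 and in V8 30. Without set 2 of every clone and set 5 of V22, the median of PK7 was 0.22 with 23 members called, and that of PK19 0.08 with 18 called. PK7, PK19 and PK25 were all compared with the same 3 V22 arrays, so their values share the error of those arrays. Where a call in all 3 parkin clones is reported, the 3 calls are therefore not independent of each other.

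**Figure D2:**
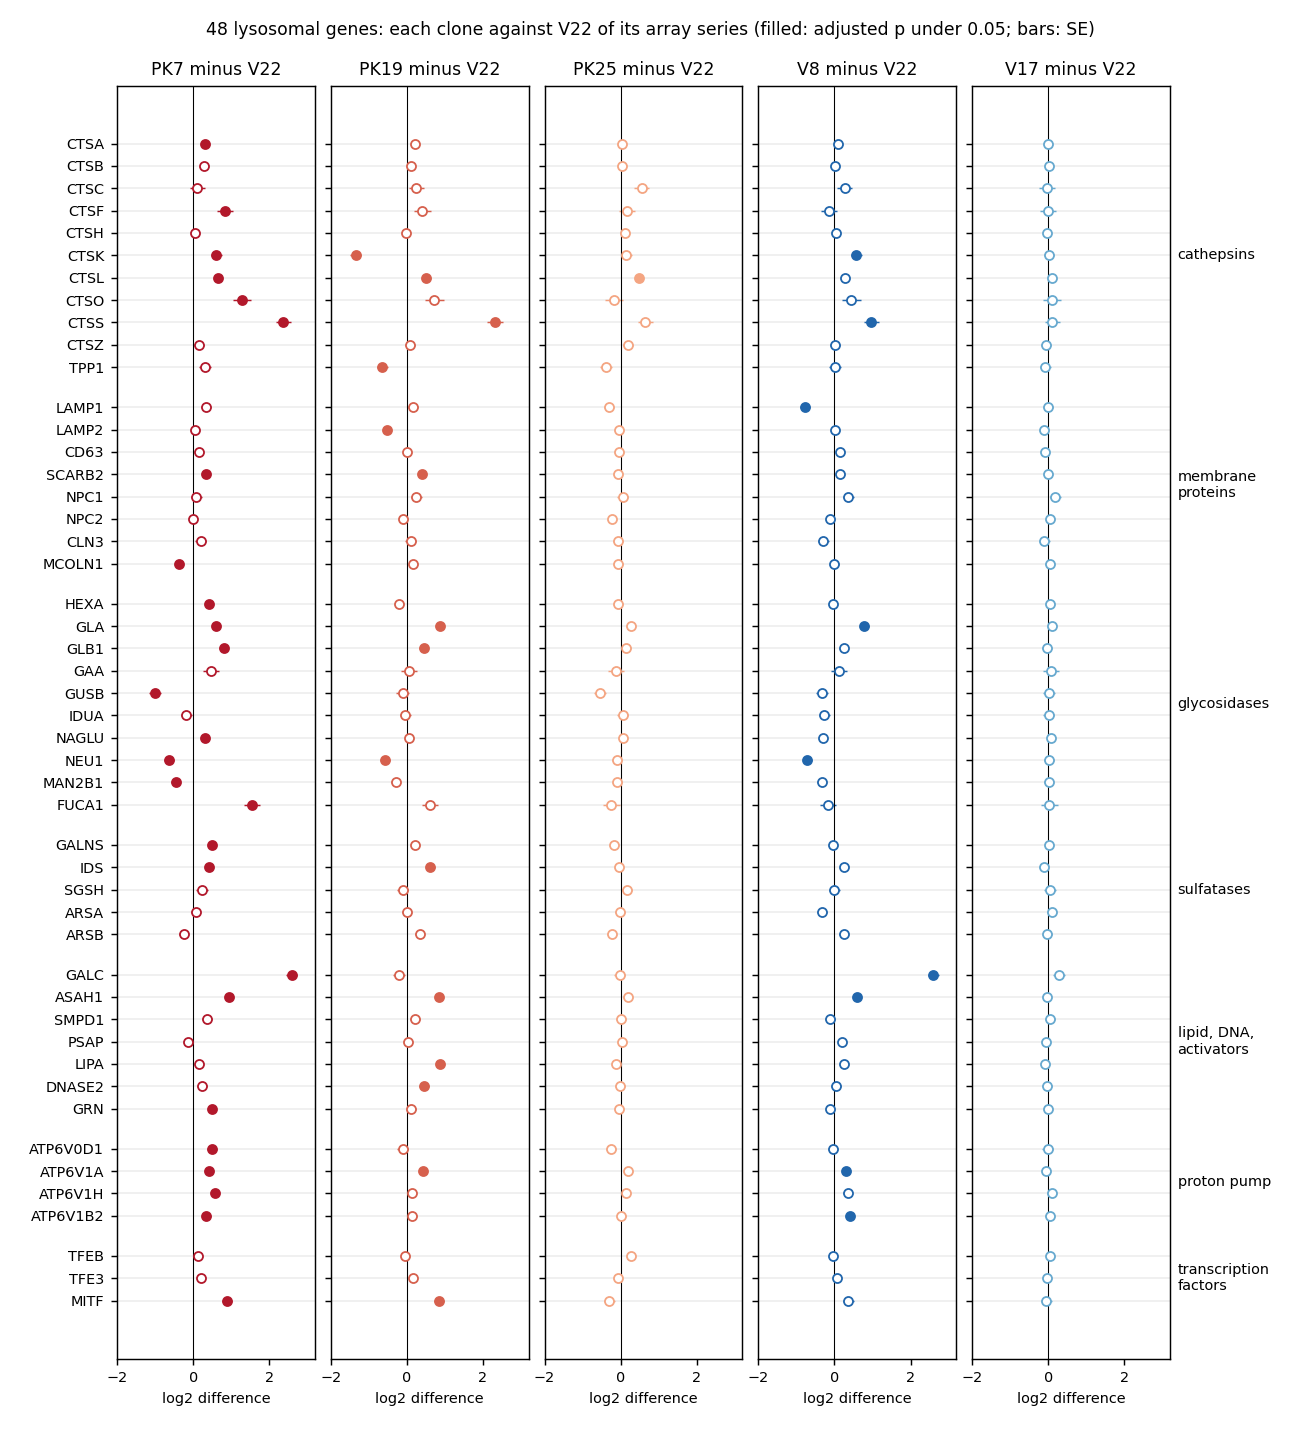
Log2 difference from V22 (x axis) of each member (rows, grouped by role) in 5 clones (panels), with bars for the standard error; filled circles have an adjusted p under 0.05. Filled circles are most frequent in PK7 (26) and PK19 (15), the largest differences are those of GALC and CTSS, and V17 has none.

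Of 11 proteases, 6 were higher in PK7 than in V22 and none lower, while in PK19 2 were higher and 2 lower. This count and those of the other roles below rest on few genes. They stand against 7.11% of all probe sets higher and 8.11% lower in PK7, and 6.65% and 7.4% in PK19. CTSS, a cysteine cathepsin that stays active at neutral pH and trims the invariant chain of MHC class II, stood at 6.26, 6.32 and 6.40 on the V22 arrays of the second series, 8.56, 8.78 and 8.77 in PK7, 8.50, 8.86 and 8.57 in PK19 and 6.89, 7.48 and 6.57 in PK25. In the first series CTSS was at 6.79, 6.09 and 6.68 in V22, 6.59, 6.68 and 6.62 in V17 and 7.29, 7.90 and 7.28 in V8. All 6 arrays of PK7 and PK19 lay above every other array, the V8 and PK25 arrays overlapped each other, and each of these clones lay above V22 of its own series. The log2 difference from V22 was 2.37 in PK7 and 2.31 in PK19 (SE 0.20 each, limma adjusted p = 9.5e-08 and 8.6e-08) and 0.97 in V8 (SE 0.20, limma adjusted p = 0.0044), where it was 0.55 without set 2 of both V8 and V22. In PK25 it was 0.65 (SE 0.20, limma adjusted p = 0.16), and 0.40 without set 2 of PK25 alone.

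CTSK, the collagen-degrading cathepsin of osteoclasts, lies next to CTSS on chromosome 1 with no protein-coding gene between them, and was the only member called higher in one parkin clone and lower in another (0.746% of all probe sets were so called). Its values were 9.98, 10.03 and 10.07 in V22 of the second series, 10.57, 10.65 and 10.70 in PK7, 8.49, 9.03 and 8.53 in PK19 and 10.09, 10.50 and 9.96 in PK25. First-series values were 10.36, 10.14 and 10.39 in V22, 10.49, 10.20 and 10.29 in V17 and 10.88, 10.87 and 10.88 in V8. The PK19 arrays of CTSK lay below all 18 others and the V8 arrays above all others. CTSK was 0.61 above V22 in PK7 (SE 0.14, limma adjusted p = 0.0039), and its log2 difference in PK19 was -1.35 (SE 0.14, limma adjusted p = 6.3e-07). In PK19, therefore, CTSS was higher and its neighbour CTSK lower. V8 lay 0.58 above V22 (SE 0.14, limma adjusted p = 0.011), a call lost without set 2 of V22 (0.50, limma adjusted p = 0.065).

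CTSL, a broad endopeptidase and one of the most abundant cathepsins, was called higher in all 3 parkin clones (0.197% of all probe sets were). It was at 10.79, 11.04 and 10.91 in V22 of the second series, 11.50, 11.71 and 11.52 in PK7, 11.47, 11.32 and 11.49 in PK19 and 11.38, 11.61 and 11.20 in PK25. The first-series arrays read 11.30, 11.16 and 11.34 in V22, 11.33, 11.53 and 11.27 in V17 and 11.53, 11.55 and 11.57 in V8. Every parkin array of CTSL thus lay above the V22 arrays run beside it, but their range largely overlapped that of the vector arrays of the first series, which reached 11.57. CTSL was 0.66 above V22 in PK7, 0.51 in PK19 and 0.48 in PK25 (SE 0.11 each, limma adjusted p = 1.9e-04, 0.0020 and 0.028). V22 itself read 0.35 higher in the first series than in the second (SE 0.11, limma adjusted p = 0.32). In PK25 the call was lost without set 4 or set 6 of V22, or without set 1 or set 2 of PK25, where the difference was 0.38 to 0.49 with limma adjusted p = 0.080 to 0.16.

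CTSO, a cathepsin of little-studied function, was at 6.50, 6.25 and 6.73 in V22 of the second series, 7.50, 8.21 and 7.60 in PK7, 7.48, 6.91 and 7.26 in PK19 and 6.53, 6.67 and 5.77 in PK25. In the first series CTSO was at 6.85, 6.04 and 6.65 in V22, 6.63, 6.36 and 6.86 in V17 and 6.94, 6.88 and 7.06 in V8. The arrays of PK7 were the highest of all 21, and PK19 also cleared V22 without overlap. CTSO was 1.28 above V22 in PK7 (SE 0.24, limma adjusted p = 8.3e-04), and 0.72 in PK19, which missed the threshold (SE 0.24, limma adjusted p = 0.054).

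Among the other proteases, CTSF was 0.84 above V22 in PK7 (SE 0.21, limma adjusted p = 0.0094), falling to 0.46 without set 2 of PK7. CTSA, the carboxypeptidase that stabilises beta-galactosidase and sialidase, was 0.31 above V22 in PK7, and this call was lost without set 2 of PK7 or without any 1 of the V22 arrays (0.19 to 0.33, limma adjusted p = 0.094 to 0.28). TPP1, a tripeptidyl peptidase whose loss causes a childhood neuronal storage disease, was lower than V22 in PK19 (log2 difference -0.64, SE 0.15, limma adjusted p = 0.0058) and stood at 0.32 in PK7, which did not pass and was 0.16 without set 2. CTSB, CTSC, CTSH and CTSZ passed in no parkin clone, with differences between -0.02 and 0.55.

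Glycan-degrading enzymes moved in both directions in PK7, with 5 of 10 glycosidases higher and 3 lower than V22. FUCA1, the lysosomal alpha-fucosidase, was at 6.20, 5.93 and 6.11 in V22 of the second series, 7.30, 8.36 and 7.22 in PK7, 6.46, 6.87 and 6.75 in PK19 and 5.78, 5.80 and 5.93 in PK25. On first-series arrays FUCA1 was at 6.22, 6.08 and 6.10 in V22, 6.28, 6.01 and 6.22 in V17 and 6.25, 5.61 and 6.03 in V8. PK7 lay apart above every other clone, with set 2 highest, and PK19 lay between PK7 and the rest. FUCA1 was 1.54 above V22 in PK7 (SE 0.22, limma adjusted p = 3.8e-05) and 1.11 without set 2 of the clones and set 5 of V22. In PK19 the difference was 0.61 (SE 0.22, limma adjusted p = 0.069).

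GLA, the alpha-galactosidase deficient in Fabry disease, was at 8.51, 8.14 and 8.59 in V22 of the second series, 9.06, 8.87 and 9.11 in PK7, 9.24, 9.28 and 9.35 in PK19 and 8.74, 8.75 and 8.53 in PK25. In the first series GLA was at 8.41, 8.35 and 8.43 in V22, 8.40, 8.53 and 8.55 in V17 and 9.30, 9.11 and 9.14 in V8. PK7, PK19 and the vector clone V8 formed a high group that did not overlap V22, V17 and PK25. The log2 difference of GLA from V22 was 0.60 in PK7, 0.87 in PK19 and 0.79 in V8 (SE 0.11 each, limma adjusted p = 6.1e-04, 7.6e-06 and 1.0e-04).

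GLB1, beta-galactosidase, was 0.81 above V22 in PK7 (SE 0.12, limma adjusted p = 8.3e-05) and 0.44 in PK19, a call lost without set 5 of V22 (0.41, limma adjusted p = 0.067). HEXA, the alpha subunit of the hexosaminidase deficient in Tay-Sachs disease, was 0.42 above V22 in PK7, and NAGLU, which acts on heparan sulfate, 0.32. Both calls depended on single arrays: HEXA lost its call without set 2 of PK7 or set 5 of V22 (0.33 to 0.36), and NAGLU without set 2 or 3 of PK7 or any 1 of the V22 arrays (0.22 to 0.36). On the other side, GUSB, beta-glucuronidase, was lower than V22 in PK7 (log2 difference -1.003, SE 0.16, limma adjusted p = 1.4e-04), and MAN2B1, alpha-mannosidase, was lower too (log2 difference -0.46). NEU1, the sialidase that forms a complex with CTSA and GLB1, was lower than V22 in PK7, PK19 and V8, by log2 differences of -0.63, -0.57 and -0.71 (SE 0.12 each, limma adjusted p = 0.0010, 0.0024 and 8.0e-04). The other probe sets of NEU1 gave -0.57, -0.55 and -0.72 in these clones, with values identical to each other, so they are not separate measurements. GAA and IDUA, the iduronidase, passed in no parkin clone.

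Sulfatases remove sulfate groups from glycosaminoglycans and sulfolipids, and of 5, 2 were higher than V22 in PK7 and 1 in PK19, with none lower. IDS, iduronate sulfatase, was 0.42 above V22 in PK7 and 0.62 in PK19 (SE 0.11 each, limma adjusted p = 0.015 and 6.0e-04), and the PK7 call was lost without set 2 of PK7 (0.28, limma adjusted p = 0.10). Its second probe set gave 0.42 and 0.63, and was also called higher in V8 (0.44, limma adjusted p = 0.011). The probe set used for IDS stood at 0.25 in V8, which did not pass (limma adjusted p = 0.22). GALNS was 0.50 above V22 in PK7 (SE 0.11, limma adjusted p = 0.0022). SGSH, ARSA and ARSB passed in no parkin clone.

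Of 7 enzymes and activators of lipid and nucleic acid breakdown, 3 were higher than V22 in PK7 and 3 in PK19, with none lower. GALC, the galactocerebrosidase that degrades the myelin lipid galactosylceramide and is deficient in Krabbe disease, was at 4.35, 4.13 and 4.27 in V22 of the second series, 6.61, 7.28 and 6.64 in PK7, 4.31, 3.81 and 4.02 in PK19 and 4.19, 4.43 and 4.05 in PK25. First-series values of GALC were 3.64, 3.66 and 3.76 in V22, 3.95, 4.05 and 3.90 in V17 and 6.33, 6.40 and 6.14 in V8. GALC was therefore high in PK7, a parkin clone, and in V8, a vector clone, with no overlap with the other 4 clones, in which it lay among the dim probe sets of the array. The log2 difference from V22 was 2.59 in PK7 and 2.60 in V8 (SE 0.15 each, limma adjusted p = 6.3e-10 and 3.5e-09). PK19 and PK25 differed from V22 by -0.21 and -0.03, and neither passed. Where GALC is this dim, the array's background limits the size of its differences.

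LIPA, the acid lipase that frees cholesterol from its esters, was at 9.88, 9.47 and 9.84 in V22 of the second series, 9.94, 9.81 and 9.88 in PK7, 10.58, 10.61 and 10.58 in PK19 and 9.67, 9.63 and 9.54 in PK25. In the first series LIPA was at 9.60, 9.50 and 9.69 in V22, 9.56, 9.32 and 9.66 in V17 and 9.86, 9.86 and 9.83 in V8. PK19 stood apart above all other arrays, which lay between 9.32 and 9.94. The difference of PK19 from V22 was 0.86 (SE 0.11, limma adjusted p = 5.9e-06), and that of PK7 0.15, which did not pass.

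ASAH1, acid ceramidase, was 0.95 above V22 in PK7, 0.84 in PK19 and 0.58 in V8 (SE 0.10 each, limma adjusted p = 1.4e-06, 4.4e-06 and 7.6e-04). GRN, progranulin, a secreted and lysosomal glycoprotein, was 0.50 above V22 in PK7 (SE 0.11, limma adjusted p = 0.0024). DNASE2, which degrades DNA in the lysosome, was 0.46 above V22 in PK19, a call lost without set 4 or 5 of V22 or set 2 or 3 of PK19 (0.38 to 0.48, limma adjusted p = 0.052 to 0.12). SMPD1, acid sphingomyelinase, and PSAP, the precursor of the saposins that help these enzymes reach their lipids, passed in no parkin clone.

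Of 8 membrane proteins and cholesterol exporters, 1 was higher and 1 lower than V22 in PK7, and likewise in PK19. Each is a share of 12.5%, near those of probe sets above the median level (10.4% and 14.8% in PK7, 9.2% and 13.1% in PK19). LAMP1 was at 10.32, 10.39 and 10.38 in V22 of the second series, 10.67, 10.75 and 10.67 in PK7, 10.51, 10.52 and 10.52 in PK19 and 10.09, 10.01 and 10.06 in PK25. In the first series LAMP1 was at 10.48, 10.44 and 10.35 in V22, 10.44, 10.31 and 10.49 in V17 and 10.05, 9.18 and 9.74 in V8. V8 was low and scattered, PK25 lay below V22 and PK7 above it, with no overlap within a series. V8 was below V22 by a log2 difference of -0.77 (SE 0.14, limma adjusted p = 0.0010), while PK7 (0.33), PK19 (0.16) and PK25 (-0.31) did not pass.

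LAMP2, which also serves chaperone-mediated autophagy, was below V22 in PK19 by a log2 difference of -0.53 (SE 0.082, limma adjusted p = 8.4e-05) and stood at 0.04 in PK7. SCARB2, the receptor that carries glucocerebrosidase to the lysosome, was 0.33 above V22 in PK7 and 0.38 in PK19 (SE 0.085 each, limma adjusted p = 0.010 and 0.0031), and the PK7 call was lost without set 2 of PK7 or set 5 of V22 (0.28 to 0.30). MCOLN1 was lower in PK7 by a log2 difference of -0.38 (SE 0.11, limma adjusted p = 0.021), which was lost without set 1 or 3 of PK7 or set 4 or 6 of V22 (-0.37 to -0.34). The tetraspanin CD63, the cholesterol exporters NPC1 and NPC2, and CLN3 passed in no parkin clone.

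All 4 members of the proton pump were called higher in PK7 than in V22, where 7.11% of all probe sets and 10.4% of those above the median level were. They were the catalytic subunit ATP6V1A (0.43), its partner ATP6V1B2 (0.35), the regulatory subunit ATP6V1H (0.57) and ATP6V0D1 of the membrane sector (0.50). The call of ATP6V0D1 was lost without set 1 or 3 of PK7 or set 5 of V22 (0.41 to 0.47), and that of ATP6V1B2 without set 1 or 3 of PK7 or any 1 of the V22 arrays (0.27 to 0.39). ATP6V1A was also higher in PK19 (0.41, SE 0.092, limma adjusted p = 0.0031) and, with ATP6V1B2 (0.41), in V8 (0.31), though both V8 calls were lost without set 1 or 2 of V8 or any 1 of the V22 arrays (0.27 to 0.34 for ATP6V1A, 0.30 to 0.45 for ATP6V1B2).

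Of the transcription factors, MITF was 0.89 above V22 in PK7 and 0.84 in PK19 (SE 0.14 each, limma adjusted p = 1.5e-04 and 2.2e-04), and stood at -0.30 in PK25 and 0.37 in V8, which did not pass. TFEB and TFE3 passed in no clone, with differences from -0.06 to 0.26. Transcript levels say nothing of where in the cell these factors are, on which their activity depends.

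**Figure D3:**
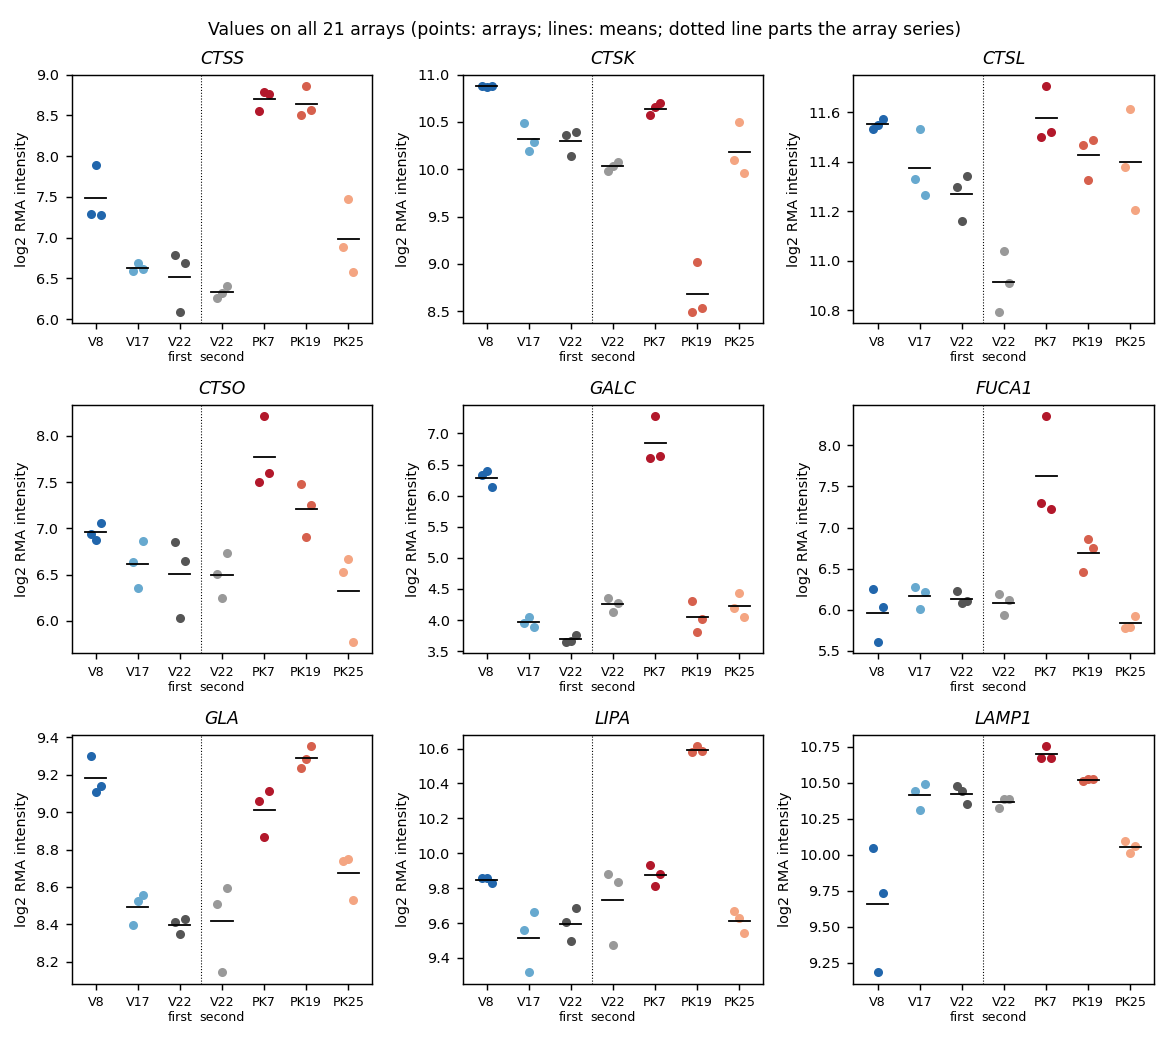
Log2 RMA intensity (y axis) of 9 members on all 21 arrays: points are arrays, short lines are the means of 3 arrays, and the dotted line parts the first series (V8, V17, V22) from the second (V22, PK7, PK19, PK25). PK7 and PK19 stand apart in CTSS, PK19 is low in CTSK and high in LIPA, and GALC is high in PK7 and V8.

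The parkin clones differed among themselves at 26 of the 48 members (limma F test, adjusted p under 0.05), where 23.6% of all probe sets did. The means compared come from parkin arrays alone, and the spread from all 21 arrays. PK7 and PK19 differed at 14 members (15.8% of all probe sets), PK7 and PK25 at 21 (13.9%) and PK19 and PK25 at 17 (14.9%). Against PK25, 19 members were higher in PK7 and 2 lower (7.53% and 6.33% of all probe sets). CTSS was 1.72 higher in PK7 than in PK25 and 1.66 higher in PK19 (SE 0.20 each, limma adjusted p = 6.7e-06 and 6.9e-06), and MITF 1.19 and 1.14 higher (SE 0.14 each, limma adjusted p = 6.7e-06 and 7.6e-06). Between PK7 and PK19, GALC differed by 2.80 and CTSK by 1.96, both higher in PK7, and TPP1 by 0.96, while GUSB (-0.89) and LIPA (-0.71) were lower in PK7. ARSB, not called against V22, was lower in PK7 than in PK19 by a log2 difference of -0.58 (SE 0.12, limma adjusted p = 0.0014), and TFEB lower in PK19 than in PK25 by -0.33.

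Because V8 also departed from V22, each parkin clone's difference from V22 was compared with that of V8, in the same fit. PK7 exceeded V8 at 6 members and fell short at none (2.68% and 2.53% of all probe sets). The 6 were FUCA1 (1.72), CTSS (1.40), LAMP1 (1.10), NAGLU (0.63), GRN (0.62) and GALNS (0.55). PK19 exceeded V8 at CTSS (1.34), LAMP1 (0.93) and LIPA (0.61) and fell short at GALC (-2.81), CTSK (-1.92) and LAMP2 (-0.55), where 3.02% of all probe sets were higher and 3.2% lower. LAMP1 was among these with its low level in V8, and neither PK7 nor PK19 passed for it against V22. NAGLU stood at -0.31 in V8, which did not pass, and at 0.32 in PK7, a call that depended on single arrays. PK25 fell short of V8 at GALC alone (-2.63; 1.06% of all probe sets were lower). Of the members called higher than V22 in both PK7 and PK19, CTSS alone exceeded V8. CTSL, SCARB2, GLA, GLB1, IDS, ASAH1, ATP6V1A and MITF did not differ detectably from V8 in either clone. For GLA, ASAH1 and MITF the limma adjusted p ran from 0.15 to 0.87.

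**Figure D4:**
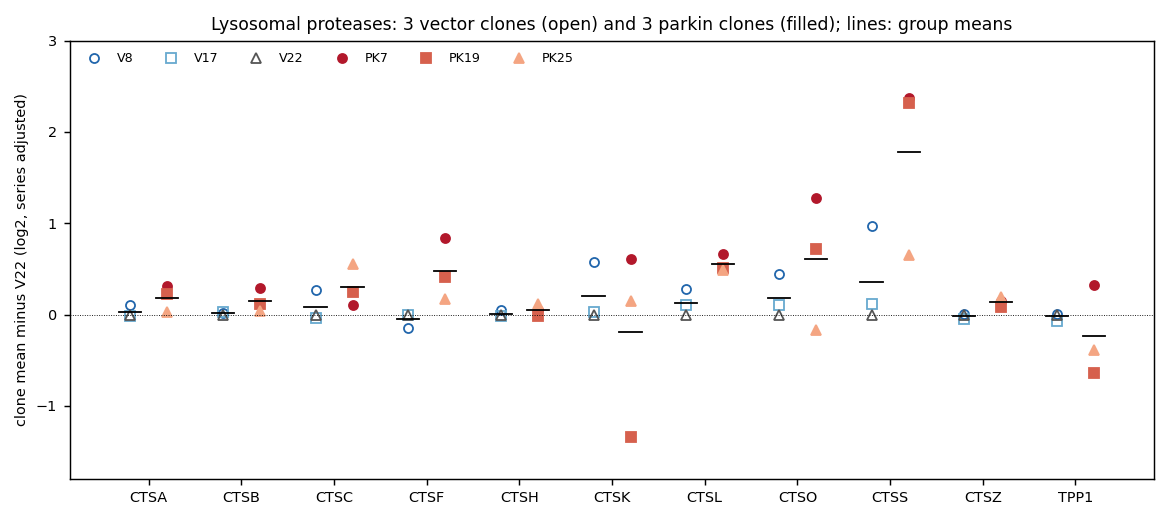
Clone means of the 11 lysosomal proteases, as log2 difference from V22 after adjustment for the array series (y axis): open symbols are the 3 vector clones, filled symbols the 3 parkin clones, and short lines the group means. CTSL, CTSF, CTSB and CTSZ have all parkin clones above all vector clones, and CTSS and CTSK spread most among the parkin clones.

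With the clone as the replicate, no member separated the 3 parkin from the 3 vector clones at an adjusted p under 0.05 in limma, where 1 probe set in all did (0.00371%). At an unadjusted p under 0.05 there were 3 members, against 14.1% of all probe sets. The first was CTSL, with 11.47 ± 0.095 (SD, n = 3 clones) in parkin and 11.04 ± 0.14 in vector clones after adjustment for the series. Its difference was 0.42 (SE 0.099, limma adjusted p = 0.31). CTSF followed at 7.07 ± 0.34 against 6.54 ± 0.083 (SD, n = 3 clones; difference 0.52, limma adjusted p = 0.32, and 0.19 without the set 2 arrays and V22 set 5), then CTSS at 8.11 ± 0.98 against 6.69 ± 0.53 (difference 1.42, limma adjusted p = 0.33). All parkin clone means lay above all vector clone means for 5 members, CTSB, CTSF, CTSL, CTSZ and NAGLU, or 10.4% of members against 12.3% of all probe sets, and below them for none, against 10.9%. Over the 48 members the median difference was 0.13, with 36 above 0, and over all genes 0.01. Without PK7 it was 0.07, and without PK25 0.20. V22 differed between its 2 series at no member in limma (0.0297% of all probe sets were called), and 6 members reached an unadjusted p under 0.05, against 8.75% of all probe sets.

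Some differences were shared with the genes that lie around a member on its chromosome. For each member the median log2 difference of the 50 nearest expressed genes (mean log2 above 7) was taken. NEU1, on chromosome 6, had neighbours at -0.50 in PK7, -0.58 in PK19 and -0.54 in V8, close to its own differences, and less its neighbours it was at -0.13, 0.01 and -0.17, with no call left. MAN2B1 and MCOLN1, both on chromosome 19, stood at -0.20 and -0.16 less their neighbours in PK7 and lost their calls, so that of the 4 members lower in PK7 GUSB alone still passed (-0.79). Among the members higher in PK7, NAGLU and the pump subunit ATP6V1B2 lost their calls, at 0.25 and 0.09 less their neighbours. LAMP1, on chromosome 13, had neighbours at -0.72 in V8 and stood at -0.05 less them. TFEB, also on chromosome 6, did not itself pass, at 0.13 in PK7, -0.06 in PK19 and -0.05 in V8. Its neighbours stood at -0.59, -0.72 and -0.50 in these clones. Less them TFEB was at 0.73, 0.66 and 0.45, each past the threshold in limma, but these values hold mostly the neighbours' shift and show no rise of TFEB. TFEB was also dimmer (mean log2 6.11) than the level required of the neighbours. CTSS, CTSK and GALC differed from V22 by at least as much as before in PK7 and V8 when their neighbours were subtracted, and in PK19 CTSS stood at 2.19 and CTSK at -1.47. CTSL had neighbours at 0.22 in PK7 and 0.44 less them. In all, subtraction left 26 members called in PK7, of which 21 were called before, 20 in PK19 (14 before), 6 in V8 (5 before) and none in PK25. The part of the neighbours' shift in these results was not tested.

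**Figure D5:**
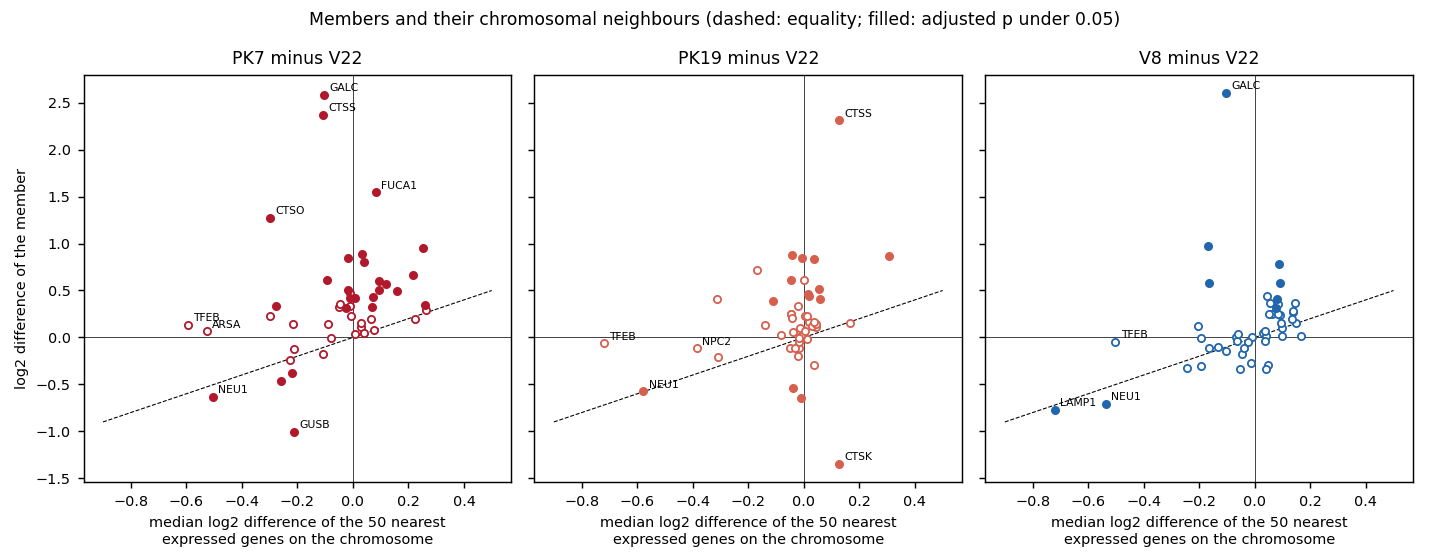
Log2 difference of each member from V22 (y axis) against the median log2 difference of the 50 nearest expressed genes on its chromosome (x axis) in PK7, PK19 and V8; filled points have an adjusted p under 0.05 and the dashed line marks equality. NEU1, and LAMP1 in V8, lie near the line, while GALC and CTSS in PK7, CTSS and CTSK in PK19 and GALC in V8 lie far from it.

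Genes of the same organelle outside the 48 were read from further lists, whose counts stand against the shares of all and of bright probe sets given above. Of 29 other lysosomal hydrolases measured, 16 were higher and none lower than V22 in PK7, 8 and 2 in PK19, 1 and 1 in PK25 and 3 and 1 in V8. CTSD, the major aspartic protease of the lysosome, was 1.16 above V22 in PK7, 1.00 in PK19 and 0.64 in PK25 (SE 0.14 each, limma adjusted p = 5.2e-06, 2.1e-05 and 0.023), and stood at -0.07 in V8. IFI30, a thiol reductase of antigen processing (0.71 and 0.85), and SCPEP1, a serine carboxypeptidase (0.74 and 0.90), were higher in PK7 and PK19. Of 21 other membrane proteins, 8 were higher in PK7 and 4 in PK19, with 0 and 2 lower. Of 17 other pump subunits, 6 were higher and 1 lower in PK7 and 1 and 1 in PK19, and their median log2 difference in PK7 was 0.02. ATP6V0D2, a subunit of osteoclasts and macrophages, was 2.17 above V22 in PK7, 2.20 in PK19 and 1.49 in V8 (SE 0.32 each, limma adjusted p = 6.2e-05, 4.1e-05 and 0.0047).

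Genes that sort enzymes to the lysosome moved in both directions in PK7 (6 higher and 3 lower of 21), and those that place TFEB under mTORC1 comprised 3 higher and 2 lower of 21 in PK7 (14.3% and 9.52%), and 2 and 2 in PK19, near the shares of bright probe sets. Autophagy genes were higher in 9 of 26 in PK7 and 10 in PK19, with 0 and 1 lower, and GABARAPL1, which coats autophagosomes, was 1.17 and 1.14 above V22 (SE 0.16 each, limma adjusted p = 3.5e-05 and 3.4e-05). Among 9 inhibitors of cathepsins, 1 was higher in PK7 and 2 in PK19. CST3, cystatin C, which is secreted and blocks cysteine cathepsins, was 0.54 and 0.43 above V22 in these clones.

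The cell type was checked because CTSS, CTSK, ATP6V0D2 and IFI30 are prominent in macrophages and osteoclasts. Of 12 macrophage and microglia markers, 11 lay below the median probe set and 6 among the dimmest 30%, including PTPRC (mean log2 3.12), LYZ (3.17) and CD163 (4.04). Their summed intensity ranged from 442 to 485 over the 7 groups of arrays, and 1 of the 12, FCER1G, was higher in PK7 (0.64) and PK19 (1.08). The mesenchymal glioma markers VIM (12.76), CD44 (11.84) and TNC (10.98) were bright, while the astrocyte marker GFAP (6.29) and the stem cell marker SOX2 (6.21) lay near the median probe set and S100B (4.07), also an astrocyte marker, was dim. Of the 9 glioma and astrocyte markers measured, 2 were higher and 3 lower than V22 in PK7, 1 and 3 in PK19, and 1 and 2 in V8. CHI3L1, a secreted glycoprotein of mesenchymal glioma, was 3.83 above V22 in PK7 (SE 0.57, limma adjusted p = 7.2e-05) and stood at 1.57 in PK19 and -1.20 in V8, which did not pass. Among these 9 markers V22 itself read up to 1.80 higher in the first series than in the second, with 0 called. This was also the largest such difference over all genes. TNC was lower in PK7 and PK19 (log2 differences -0.54 and -0.36). The summed intensity of the 9 ranged from 12899 in V22 of the second series to 16413 in PK19, with 16125 in PK7. The part of these shifts in the lysosomal results was not tested.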

How the data were processed

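Transcripts of U-87MG clones were measured on 21 arrays, 12 of vector and 9 of parkin clones. The authors deposited RMA intensity on a linear scale, RMA being named per the submitters' processing notes without a version; whether both series went through 1 normalization is not given in the sources used here. The deposited intensities were turned into log2 values here, with no missing value and no filter on low values. Since arrays count no reads, precision is limited by how many arrays and clones there are. The first and second array series were read from the prefixes of the scanner file names, which is an assumption.

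All probe sets were fitted with limma 3.58.1 (lmFit, eBayes) in R 4.3.3, with 1 mean per clone and series, and p-values were adjusted by the Benjamini-Hochberg method over all 26947 probe sets. Each clone was compared with V22 of its own series. The differences of the parkin clones less that of V8 were added after the design was fixed. Parkin and vector clones were compared on 6 clone means, after subtracting the V22 difference between the series from the first-series arrays, and the error of that link is not fully held in the SE. The fits were tested on simulated data. Symbols were updated through gene IDs, and neighbours and promoters came from RefSeq (GRCh38.p14).

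The members and lists were chosen with earlier results of these data known. Values of every array are given for members called in all 3 parkin clones, called in opposite directions, or among the 4 largest called differences of a clone. From each further list, genes were taken by smallest p between parkin and vector clones, up to 3, and by calls in all 3 parkin clones, and some are described here. Alternatives covered the probe set, normalization, dim probe sets, variance model, series, set-number block, left-out arrays and clones, chromosomal neighbours and the motif.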

Additional observations from a re-analysis of the deposited data

Results flagged for a closer look

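Several members had mean differences from V22 of opposite sign in different parkin clones. They also differed between these clones by at least 1 on the log2 scale in limma's test of the difference itself. CTSK was 0.61 above V22 in PK7 and lay at -1.35 in PK19, a difference of 1.96 between these clones (limma adjusted p = 4.0e-09). In PK25 CTSK stood at 0.15, and at -0.0041 without set 2 of PK25, so the side of V22 on which PK25 lay is not resolved. PK19 differed from PK25 by -1.50 (limma adjusted p = 1.9e-07). GALC stood at 2.59 in PK7, -0.21 in PK19 and -0.03 in PK25, but its level in V22, PK19 and PK25 was so dim that the side of V22 on which PK19 and PK25 lay is not resolved, and background limits the size of its differences. These were 2.80 between PK7 and PK19 (limma adjusted p = 1.0e-10) and 2.62 between PK7 and PK25 (limma adjusted p = 8.0e-10). CTSO, at 1.28 in PK7 and -0.17 in PK25, differed by 1.45 (limma adjusted p = 2.9e-04), and FUCA1, at 1.54 and -0.25, by 1.79 (limma adjusted p = 7.9e-06). In PK25 CTSO did not pass (limma adjusted p = 0.85) and its arrays overlapped those of V22, so its side of V22 is not resolved. MITF, at -0.30 in PK25, differed by 1.19 from PK7 and by 1.14 from PK19 (limma adjusted p = 6.7e-06 and 7.6e-06). In each of these pairs except that of CTSK in PK7 and PK19, 1 of the clones did not itself pass against V22.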

How the results depend on the processing

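Over the settings tried, 16 of the 26 calls in PK7, 12 of 15 in PK19, 4 of 9 in V8 and 0 of 1 in PK25 held in every setting. The count of members called stayed at 20 to 27 in PK7, 13 to 20 in PK19, 6 to 10 in V8 and 24 to 32 among the parkin clones. The median of members, PK19 against V22, was 0.15 with quantile normalization, 0.12 with arrays centred on their medians, 0.0838 without the set 2 arrays and V22 set 5, and 0.11 to 0.17 when 1 array was left out. The last but one setting gave a median of 0.22 in PK7, 5 calls in PK25 and 2 calls for V22 between the series. PK25 had 0 calls with centred arrays, with each series fitted alone and less the running median of neighbours, and 0 to 1 when 1 array was left out. NEU1 in PK19 turned from -0.57 to 0.0057 less its neighbours.

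The labels do not say what a set number marks, and it was not taken as a pairing, because same-numbered arrays did not all correlate above 0.1 (6 of 9 pairs in the parkin clones, 4 of 9 in the first series). The data hold a hint of one: in the first series same-numbered arrays correlated at 0.0591 to 0.216 and others at -0.141 to 0.0533, so each array correlated best with its own number in 18 of 18 cases. In the parkin clones the ranges were -0.0917 to 0.381 and -0.365 to 0.323, and this held in 10 of 18. A fit with a block for the set numbers and arrays as observations left out V22 of the second series and made no series adjustment. It called 9 members between parkin and vector clones (15.2% of all probe sets). All its vector arrays were of the first series and all parkin arrays of the second, so parkin and series cannot be told apart. With the clone as a random block, 2 members were called (3.13%). In both fits arrays of a clone count as replicates. Another model, with a random block per set number and series, left the counts against V22 as they were, at 26 for PK7, 15 for PK19, 1 for PK25 and 9 for V8. The motif counts were 7 for TCACGTGA and 3 for its 10-letter form. Where no construction is named, the cause was not tested. Dim levels, such as those of GALC outside PK7 and V8, are limited by the array's background.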
